A study of Mus musculus with 25 samples.

Results

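Transcripts of skeletal muscle were followed through compartments cut by laser capture from the mouse palate at E14.5. The genes were chosen by name, as a list of 34 genes that serve the contractile apparatus, its assembly or its innervation, and 33 of them had a row among the 37406 genes of the table. All samples were wild-type CD1 embryos with no treatment named. The anterior and the posterior palate were each cut into medial and lateral compartments and, in separate captures, into oral and nasal compartments. This gave 8 compartments and 25 RNA-seq libraries, 3 for each compartment and 4 for anterior nasal. Libraries are called below by compartment and replicate number, as in posterior lateral 1.

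Skeletal muscle fibers contract when thick filaments of myosin pull on thin filaments of actin, under the control of the troponins and tropomyosin. Fetal muscle uses isoforms of these proteins that later give way to adult ones, and several of the fetal isoforms are shared with the heart. Myogenic transcription factors commit progenitors (Pax7, Myf5, Myod1) and then drive differentiation (Myog, Myf6). In the palate, skeletal muscle belongs to the posterior, soft part, where it moves the palate in swallowing and speech, while the anterior palate is mainly bone and mucosa.

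Values were RPKM, reads scaled to transcript length and library depth, as the authors deposited them. Depth was worked out from the steps between values. The reads kept in the table, not those sequenced, came to about 1640000 to 6560000 in each library, with a median of 3270000. The relation between libraries was well fixed, but this scale rests on transcript lengths, which matched for 771 of 4912 genes compared, and is approximate. At these depths 1 read on a transcript 1 kb long equalled 0.153 to 0.61 RPKM, so levels under 1 RPKM rested on few reads for short transcripts but not for long ones such as Ttn. These limits cover counting error only. Posterior medial 2 stood apart, with 12935 genes above 0 against at least 16330 in each other library, and 23 of the 33 muscle genes were at 0 there. Posterior lateral 1 and anterior nasal 2 stood apart in the muscle genes themselves, as described below. The alignment names behind the table showed 8 sequencing runs. Posterior lateral 1 and posterior medial 1 were each the only library of their run and carried ERK2_WT in their alignment names, 4 libraries carried Tgfbr2_WT, and all 25 were labelled as wild-type CD1.

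To show the motifs searched for in the promoters of the muscle genes, the 250 bases before the annotated start of 4 genes are given, from RefSeq on GRCm38.p6. They were picked as examples that hold a match, and no motif is shared by all 4. Actc1 and Mylpf had the highest mean levels of all members, Acta1 encodes the actin of adult skeletal muscle, and Chrna1 did not follow the other genes. Capitals mark the E-box CAGCTG, one form of CANNTG, which myogenic factors of the Myod1 family can bind, and the CArG box, the site of serum response factor. Both strands were searched.
Actc1: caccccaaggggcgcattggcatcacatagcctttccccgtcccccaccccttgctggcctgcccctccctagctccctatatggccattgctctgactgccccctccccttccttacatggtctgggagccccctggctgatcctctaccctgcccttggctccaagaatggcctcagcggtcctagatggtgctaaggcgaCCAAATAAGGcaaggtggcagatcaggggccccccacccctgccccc
Acta1: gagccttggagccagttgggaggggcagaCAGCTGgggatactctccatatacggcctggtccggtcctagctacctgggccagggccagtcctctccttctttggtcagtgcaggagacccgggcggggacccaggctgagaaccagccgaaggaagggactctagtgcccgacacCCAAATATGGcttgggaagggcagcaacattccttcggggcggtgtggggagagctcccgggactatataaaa
Mylpf: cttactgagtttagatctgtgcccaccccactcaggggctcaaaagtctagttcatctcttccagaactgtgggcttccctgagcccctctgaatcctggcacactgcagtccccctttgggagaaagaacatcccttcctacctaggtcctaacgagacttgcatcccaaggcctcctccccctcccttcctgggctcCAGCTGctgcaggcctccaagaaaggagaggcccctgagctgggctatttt
Chrna1: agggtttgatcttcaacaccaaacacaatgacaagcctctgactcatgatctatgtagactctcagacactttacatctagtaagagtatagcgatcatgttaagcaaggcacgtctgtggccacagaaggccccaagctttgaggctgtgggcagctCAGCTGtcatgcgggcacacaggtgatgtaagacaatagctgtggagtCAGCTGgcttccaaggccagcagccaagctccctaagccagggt
These stretches lie at chr2:114052876-114053125 (minus strand), chr8:123894776-123895025 (minus strand), chr7:127211358-127211607 (plus strand) and chr2:73580339-73580588 (minus strand). Actc1 held a CArG box 47 bases before the start and no such E-box. Acta1 held a CArG box at 73 and the E-box at 221 bases before the start. Mylpf held the E-box at 51 bases, and Chrna1 had 2, at 92 and 44 bases. Over the 26 members with a promoter in the reference table, 12 (46.2%) held CAGCTG in the 250 bases, against 12.8% of 27025 promoters. The wider form given above was found in 21 of the 26 (80.8%) and in 66.0% of all promoters. A CArG box was found in 2 of the 26 and in 1.40% of all promoters, and the MEF2 site in 2 of the 26 (Ttn and Myh8) and in 3.01%. A match is a run of letters, not a site shown to be bound.

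Muscle transcripts were low in the palate libraries. The 33 genes together summed to 17.1 RPKM in the lowest library and 394 RPKM in the highest, with a median of 79.3 RPKM. Only 15 genes reached 10 RPKM in any library, 20 reached 5 RPKM, and 4 never reached 1 RPKM. For 14 genes the median over the 25 libraries was under 1 RPKM. Actc1 supplied 16.3% of the summed level over all libraries and Mylpf another 10.9%. In bulk samples, fewer muscle cells and less RNA in each muscle cell cannot be told apart.

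The highest sum, 394 RPKM, was in posterior lateral 1, and the next, 259 RPKM, was in anterior nasal 2. The next was anterior oral 1 with 140.3 RPKM, and the lowest were anterior lateral 1 with 17.1 RPKM and anterior lateral 2 with 23.5 RPKM. Of the 33 genes, 20 had their highest value in posterior lateral 1. The value of each gene there was divided by the mean of posterior lateral 2 and 3. The median ratio was 4.73 over the 30 genes for which it could be formed, and 26 of the 30 were higher in posterior lateral 1. That library was singled out by these same values, and the matching shares of all genes were not worked out. It was alone in its run, with about 5930000 reads kept against 2380000 and 2330000 in posterior lateral 2 and 3. With median centring or quantile normalization of the libraries the sums still ran from 17.1 to 414 RPKM and from 18.25 to 404 RPKM, with the same 2 libraries highest.

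By compartment, the summed level was 23.8 to 63.1 RPKM in the 6 medial libraries and 17.1 to 394 RPKM in the 6 lateral libraries. In the 6 oral libraries it was 79.4 to 140 RPKM, and in the 7 nasal libraries it was 54.5 to 259 RPKM. The medial and the oral libraries did not overlap. The mean log2(RPKM + 0.1) was higher in the 13 oral and nasal libraries than in the 12 medial and lateral libraries for 32 of the 33 genes, with a median difference of 1.08. By mean RPKM the count was 30 of 33. Of the 27 muscle genes with at least 1 RPKM in 3 libraries, 26 were higher on the log2 scale. Over all 16095 genes at that minimum, 57.5% were higher in the oral and nasal libraries, and the median difference was 0.04. This contrast was set after the values were seen and was not tested. The 32 genes became 31 with quantile normalization and the median difference 0.73, and without posterior lateral 1, anterior nasal 2 and posterior medial 2 the count was again 32 and the median 0.97. Compartment and run were unevenly crossed. In the run that held most of both kinds, 5 medial libraries lay between 23.8 and 63.1 RPKM and 3 oral and nasal libraries between 62.8 and 88.7 RPKM. The only other run with both kinds went the other way. There posterior nasal 3, at 54.5 RPKM, lay below the lateral libraries at 58.9, 63.2 and 79.3 RPKM.

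**Figure D1:**
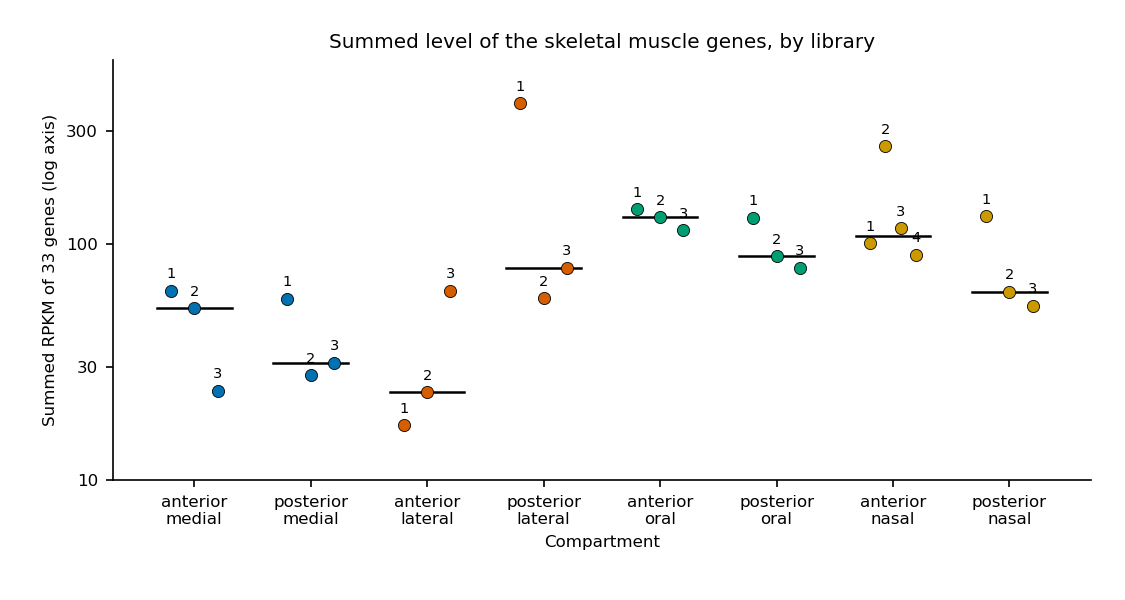
Summed RPKM of the 33 skeletal muscle genes in each library (log axis), by compartment. Numbers are replicates and lines are medians. Posterior lateral 1 (394 RPKM) and anterior nasal 2 (259 RPKM) lie above the rest, and the oral libraries lie above the medial ones.

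Other cell types were read in the same libraries. Posterior lateral 1 ranked 3 of 25 for the tendon markers (43.0 RPKM for Scx, Tnmd and Mkx together, range 9.89 to 46.45). Of this, Mkx gave 31.4 RPKM, against 31.2 and 32.1 RPKM in posterior lateral 2 and 3, and Tnmd gave 0.951 RPKM, near its median of 0.921. Scx, a tendon progenitor factor, was at 10.7 RPKM in posterior lateral 1, its highest value, and at 1.48 and 1.89 RPKM in posterior lateral 2 and 3. Anterior nasal 2 ranked first for the same markers, with 46.45 RPKM. Across all 25 libraries, which share runs and depth, the correlation with the summed muscle genes, both on a log2 scale, was r = 0.24 for the tendon, 0.25 for macrophage, 0.19 for cartilage, 0.15 for osteoblast and 0.11 for endothelial markers. It was -0.02 for palate mesenchyme, -0.09 for nerve and Schwann cell, -0.16 for epithelial and -0.24 for red cell markers. Anterior nasal 2 ranked 4 for macrophage, epithelial and cartilage markers, and posterior lateral 1 ranked 4 for palate mesenchyme and 24 for osteoblast markers. The 10 heart markers summed to 0.864 to 22.9 RPKM, with r = 0.41, the highest of these lists. In posterior lateral 1 they summed to 8.43 RPKM, rank 11, of which Tnni3 gave 5.93 RPKM. Myl3 (0.938 RPKM) and Tbx5 (0.757 RPKM) lay above their medians there, and Myh6 had its highest value of the 25 libraries (0.711 RPKM). Nppb and Gata4 were at 0.0562 and 0.0337 RPKM, and Nppa, Myl7, Myl2 and Nkx2-5 were at 0. For smooth muscle markers r was -0.33, with 40.5 RPKM in posterior lateral 1, rank 23. The part of other cell types in the muscle levels was not tested.

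**Figure D2:**
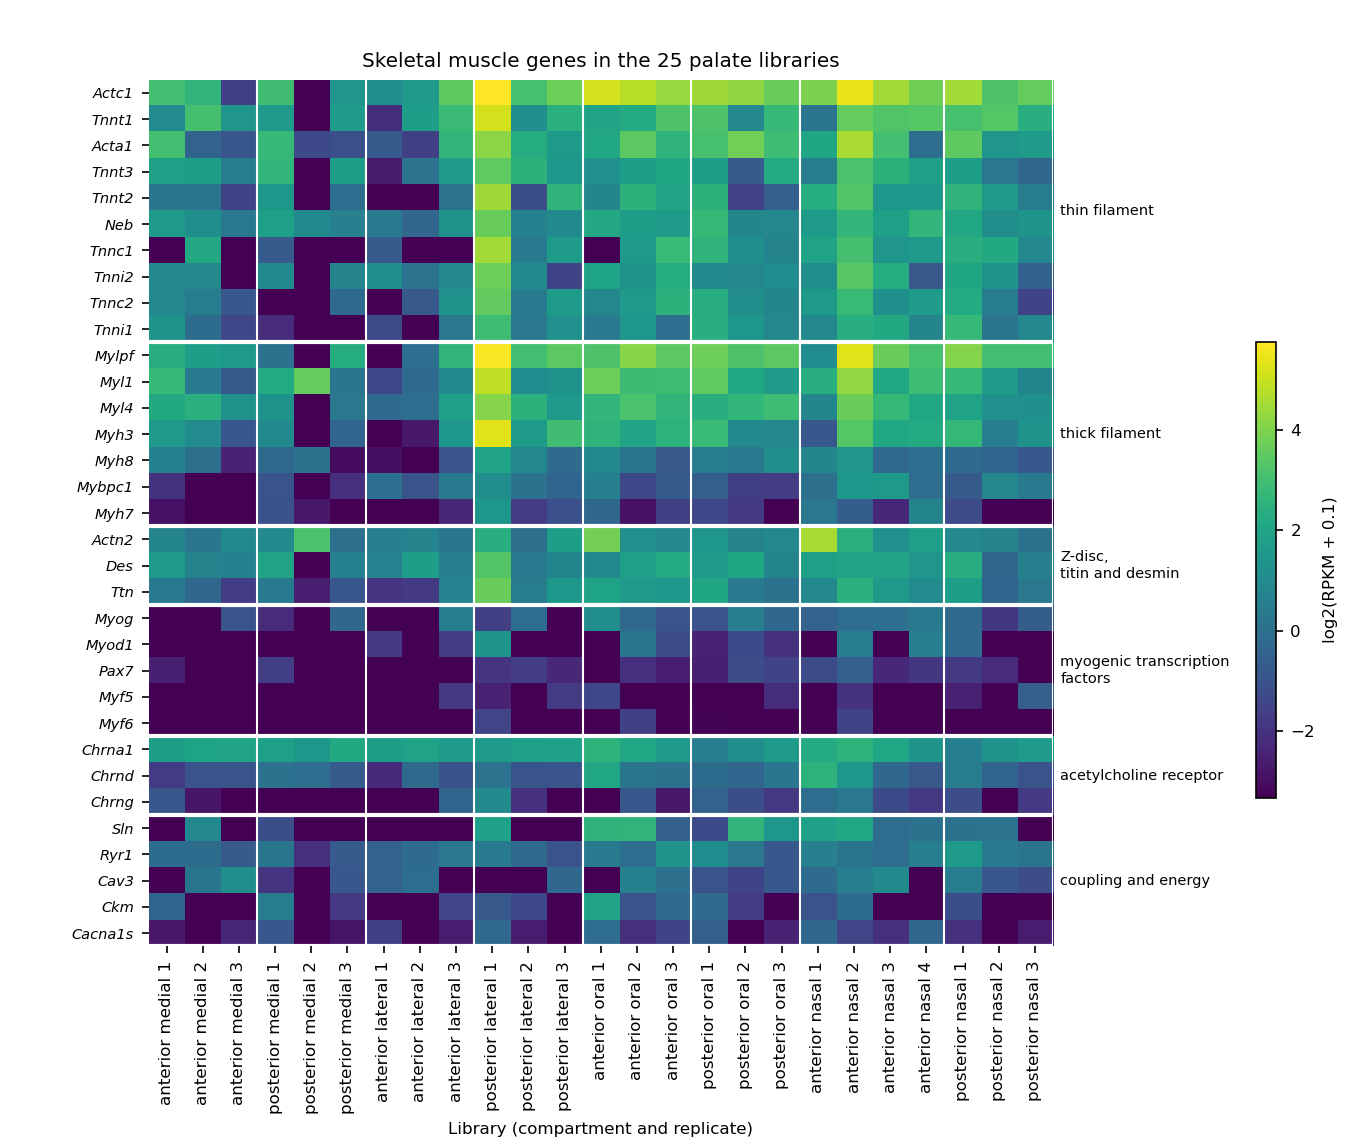
Levels of the 33 skeletal muscle genes (rows, by role) in the 25 libraries (columns, by compartment) as log2(RPKM + 0.1); the darkest cells are 0 RPKM. The column of posterior lateral 1 is bright from Actc1 to Ttn, posterior medial 2 is dark for 23 genes, and the rows of the myogenic transcription factors are mostly dark.

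Thin filament genes were the most abundant group, with 2.15 to 206 RPKM summed over 10 genes. Actc1 (gene 11464, mm9 chr2:113873025-113878547), the cardiac actin that is also the main actin of fetal skeletal muscle, had the highest mean of all members, 15.6 ± 13.3 RPKM (SD, n = 25). Actc1 was at 8.14, 5.92 and 0.222 RPKM in the anterior medial libraries, 2.06, 2.88 and 11.1 in the lateral, 35.0, 27.0 and 19.96 in the oral and 15.5, 43.9, 22.3 and 13.6 in the nasal libraries. In the posterior palate Actc1 was at 7.74, 0 and 2.58 RPKM in the medial, 53.3, 8.39 and 13.3 in the lateral, 21.7, 18.9 and 12.7 in the oral and 22.1, 9.08 and 12.1 in the nasal libraries. It thus reached 10 RPKM in all 6 oral libraries but in no medial library, and the lateral libraries overlapped both. Acta1 (gene 11459, mm9 chr8:126415667-126418636), the actin of adult skeletal muscle, averaged 6.12 RPKM. Acta1 was at 8.11, 0.638 and 0.430 RPKM in the anterior medial libraries, 0.501, 0.232 and 5.96 in the lateral, 4.26, 11.0 and 5.89 in the oral and 3.87, 23.7, 8.18 and 0.858 in the nasal libraries. Posterior Acta1 was at 6.66, 0.297 and 0.362 RPKM in the medial, 17.8, 4.83 and 3.00 in the lateral, 8.48, 13.9 and 7.41 in the oral and 11.0, 2.54 and 3.06 in the nasal libraries. Its highest library was anterior nasal 2 (23.7 RPKM), ahead of posterior lateral 1 (17.8 RPKM). Actc1 and Acta1 are near-identical in coding sequence, and reads with more than 1 alignment had been removed, so the levels of both are uncertain.

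The troponins regulate the thin filament by calcium, through a calcium-binding (Tnnc), an inhibitory (Tnni) and a tropomyosin-binding (Tnnt) subunit. Tnnt1, of slow fibers, was the most abundant, with a mean of 6.52 RPKM. Tnnt1 was at 1.96, 8.25 and 2.55 RPKM in the anterior medial libraries, 0.1302, 3.20 and 7.22 in the lateral, 3.80, 4.66 and 9.13 in the oral and 1.03, 12.1, 9.68 and 10.2 in the nasal libraries. Posterior Tnnt1 was at 2.79, 0 and 3.10 RPKM in the medial, 34.9, 2.07 and 5.35 in the lateral, 9.14, 1.81 and 6.57 in the oral and 8.54, 10.04 and 4.97 in the nasal libraries. Apart from posterior lateral 1, no library exceeded 12.1 RPKM, and the medial, lateral, oral and nasal values overlapped. Tnnt2, the fetal and cardiac form, ranged from 0 to 21.5 RPKM with a median of 1.65. Tnnt3, of fast fibers, ranged from 0 to 11.5 RPKM with a median of 3.19. Tnnc1, the slow and cardiac form, ranged from 0 to 22.4 RPKM and was at 0 in 7 libraries, and Tnnc2, of fast fibers, ranged from 0 to 11.8 RPKM. Tnni1 (slow) reached 7.44 RPKM and Tnni2 (fast) 13.2 RPKM, with medians of 1.62 and 1.92. All these maxima were in posterior lateral 1. Slow and fast forms of each subunit were thus found side by side. Neb, nebulin, which lies along the thin filament, was above 0 in every library, from 0.701 to 12.3 RPKM with a median of 2.46, in 1 of its 2 rows; its other row was at 0 throughout and was not used.

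Thick filament genes summed to 2.02 to 146 RPKM over 7 genes. Mylpf (gene 17907, mm9 chr7:134355122-134357801), the regulatory light chain of fast fibers, averaged 10.4 ± 11.8 RPKM (SD, n = 25). Mylpf was at 4.86, 3.23 and 2.86 RPKM in the anterior medial libraries, 0, 0.882 and 6.17 in the lateral, 9.21, 17.5 and 10.9 in the oral and 2.05, 40.6, 12.9 and 8.45 in the nasal libraries. Posterior Mylpf was at 0.973, 0 and 4.80 RPKM in the medial, 50.9, 7.78 and 10.8 in the lateral, 13.3, 9.26 and 10.8 in the oral and 16.4, 7.79 and 7.92 in the nasal libraries. Its highest medial value, 4.86 RPKM, was below all 6 oral values, while anterior nasal 1, with 2.05 RPKM, fell among the medial libraries. Myl1, an essential light chain of fast fibers, averaged 6.27 RPKM. Myl1 was at 6.60, 1.22 and 0.493 RPKM in the anterior medial libraries, 0.286, 0.798 and 1.90 in the lateral, 13.3, 7.35 and 7.53 in the oral and 5.01, 19.3, 4.25 and 7.46 in the nasal libraries. Posterior Myl1 was at 4.55, 11.9 and 1.03 RPKM in the medial, 29.3, 2.01 and 2.40 in the lateral, 11.5, 4.19 and 3.03 in the oral and 6.57, 3.03 and 1.59 in the nasal libraries. Posterior medial 2 thus held 11.9 RPKM of Myl1, the fourth highest of the 25 values, while Actc1 and Mylpf were at 0 in it. Myl4, the essential light chain of fetal muscle and atria, averaged 4.79 RPKM. Myl4 was at 4.42, 5.33 and 2.40 RPKM in the anterior medial libraries, 0.797, 0.866 and 3.45 in the lateral, 6.10, 8.92 and 6.03 in the oral and 1.70, 12.99, 6.40 and 4.09 in the nasal libraries. Posterior Myl4 was at 2.45, 0 and 1.15 RPKM in the medial, 17.0, 5.596 and 2.86 in the lateral, 5.15, 6.25 and 7.53 in the oral and 3.66, 2.31 and 2.22 in the nasal libraries. Its posterior oral values all lay above the posterior nasal ones, and it is taken up again in that comparison.

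Of the heavy chains, Myh3 (embryonic) ranged from 0 to 40.2 RPKM with a median of 2.60, Myh8 (perinatal) from 0 to 3.65 RPKM with a median of 0.896 and Myh7 (slow and cardiac) from 0 to 2.61 RPKM with a median of 0.108. In posterior lateral 1 the 3 stood at 40.2, 3.65 and 2.61 RPKM, while the adult fast chains Myh1, Myh2 and Myh4 were at 0.0536, 0.0283 and 0.1895 RPKM. RPKM is scaled by length, but these chains lie in families of similar sequence, where removal of reads with several alignments can lower single members. Mybpc1, slow myosin-binding protein C, ranged from 0 to 2.90 RPKM, with its highest value in anterior nasal 3.

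The Z-disc, titin and desmin genes had less in common. Ttn, titin, the spring that spans the sarcomere, was above 0 in every library and followed the other muscle genes most closely (r = 0.96 over 25 libraries with the mean log2 level of the other 32 genes). Ttn was at 1.16, 0.744 and 0.216 RPKM in the anterior medial libraries, 0.167, 0.189 and 1.51 in the lateral, 3.71, 2.85 and 2.75 in the oral and 1.84, 5.39, 2.88 and 1.98 in the nasal libraries. Posterior Ttn was at 1.21, 0.0704 and 0.449 RPKM in the medial, 12.57, 1.29 and 2.73 in the lateral, 3.98, 1.22 and 0.959 in the oral and 3.25, 0.650 and 1.15 in the nasal libraries. All 6 medial values were at or below 1.21 RPKM. Des, desmin, the intermediate filament of muscle, was at 2.82, 1.55 and 1.47 RPKM in the anterior medial libraries, 1.502, 3.25 and 1.45 in the lateral, 1.92, 3.47 and 4.604 in the oral and 3.45, 3.78, 3.67 and 2.52 in the nasal libraries. Posterior Des was at 3.85, 0 and 1.49 RPKM in the medial, 9.76, 1.17 and 1.60 in the lateral, 2.98, 3.94 and 1.60 in the oral and 4.90, 0.725 and 1.45 in the nasal libraries. Des was thus near 1 to 5 RPKM in 22 libraries, with 0.7245 RPKM in posterior nasal 2, 9.76 RPKM in posterior lateral 1 and 0 in posterior medial 2. Actn2, the actinin that crosslinks actin at the Z-disc, was at 1.59, 1.08 and 1.85 RPKM in the anterior medial libraries, 1.37, 1.54 and 1.06 in the lateral, 14.3, 2.27 and 1.83 in the oral and 23.5, 5.30, 2.30 and 3.33 in the nasal libraries. Posterior Actn2 was at 1.85, 8.94 and 0.919 RPKM in the medial, 5.11, 0.916 and 3.28 in the lateral, 2.71, 1.55 and 1.78 in the oral and 1.82, 1.56 and 0.979 in the nasal libraries. Its highest values were in anterior nasal 1 (23.5 RPKM), anterior oral 1 (14.3 RPKM) and posterior medial 2 (8.94 RPKM), not in posterior lateral 1. Anterior nasal 1, anterior oral 1 and anterior nasal 2 shared a sequencing run, and the first 2 also held the highest Chrnd. The heart markers summed to 22.9 RPKM in anterior nasal 1 and 15.7 RPKM in anterior oral 1, with Tbx5 (7.45 RPKM) and Myl3 (5.004 RPKM) highest in the first and Nppa (6.64 RPKM) and Myl7 (2.44 RPKM) in the second. Gata4 (1.33 RPKM) was also highest in anterior nasal 1, and Nppb (1.31 RPKM) in anterior oral 1. Not all heart markers were high there. Tnni3 was below its median of 3.92 RPKM in both, Nkx2-5 was at 0 in both, and Myl3 was at 0 in anterior oral 1. Anterior nasal 4 had a heart sum of 19.1 RPKM with Actn2 at 3.33 RPKM. Their part in Actn2 was not tested.

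Myogenic transcription factors were near the floor. Their 5 values summed to 0 to 3.19 RPKM per library. Myog, which turns on the differentiation program, was at 0, 0 and 0.417 RPKM in the anterior medial libraries, 0, 0 and 1.31 in the lateral, 2.06, 0.775 and 0.412 in the oral and 0.625, 0.845, 0.898 and 1.16 in the nasal libraries. Posterior Myog was at 0.124, 0 and 0.7002 RPKM in the medial, 0.228, 0.851 and 0 in the lateral, 0.404, 1.38 and 0.733 in the oral and 0.779, 0.175 and 0.539 in the nasal libraries. It was above 0 in all 13 oral and nasal libraries and in 6 of the 12 medial and lateral ones, and in posterior lateral 1 it stood at 0.228 RPKM although the sarcomere genes peaked there. Myod1, which commits myoblasts, was at 0, 0 and 0 RPKM in the anterior medial libraries, 0.194, 0 and 0.209 in the lateral, 0, 1.08 and 0.329 in the oral and 0, 1.35, 0 and 1.46 in the nasal libraries. Posterior Myod1 was at 0, 0 and 0 RPKM in the medial, 2.45, 0 and 0 in the lateral, 0.0863, 0.314 and 0.146 in the oral and 0.799, 0 and 0 in the nasal libraries. It was at 0 in 14 libraries, with its highest value in posterior lateral 1. Pax7, which marks muscle progenitors, was at 0.0716, 0 and 0 RPKM in the anterior medial libraries, 0, 0 and 0 in the lateral, 0, 0.134 and 0.0714 in the oral and 0.324, 0.585, 0.104 and 0.172 in the nasal libraries. Posterior Pax7 was at 0.223, 0 and 0 RPKM in the medial, 0.158, 0.214 and 0.101 in the lateral, 0.0748, 0.341 and 0.254 in the oral and 0.193, 0.121 and 0 in the nasal libraries. No library reached 0.6 RPKM. Myf5 was at 0 in 17 libraries and reached 0.574 RPKM, and Myf6 was at 0 in 21 and reached 0.270 RPKM. At these depths a level of 0 did not show that a gene was silent.

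The acetylcholine receptor of muscle is assembled from subunits at the end plate. Chrna1, its ligand-binding subunit, was at 3.25, 3.70 and 3.78 RPKM in the anterior medial libraries, 3.28, 3.59 and 2.99 in the lateral, 5.69, 4.08 and 2.92 in the oral and 4.65, 5.74, 4.13 and 2.46 in the nasal libraries. Posterior Chrna1 was at 3.34, 2.68 and 4.47 RPKM in the medial, 2.90, 3.33 and 3.51 in the lateral, 1.38, 2.17 and 2.97 in the oral and 1.40, 2.36 and 3.07 in the nasal libraries. It was above 1 RPKM in every library, with an SD of 1.07 RPKM around a mean of 3.35 RPKM, and did not follow the other muscle genes (r = -0.03). Posterior lateral 1, with 2.90 RPKM, lay below its median of 3.28 RPKM. Chrnd was at 0.201, 0.401 and 0.406 RPKM in the anterior medial libraries, 0.118, 0.767 and 0.383 in the lateral, 4.25, 1.04 and 0.943 in the oral and 5.64, 2.67, 0.729 and 0.485 in the nasal libraries. Posterior Chrnd was at 0.975, 0.840 and 0.511 RPKM in the medial, 0.984, 0.414 and 0.424 in the lateral, 0.813, 0.670 and 1.07 in the oral and 1.29, 0.683 and 0.394 in the nasal libraries. Only anterior nasal 1 and anterior oral 1 exceeded 4 RPKM. Chrng, the fetal subunit, was at 0.449, 0.0467 and 0 RPKM in the anterior medial libraries, 0, 0 and 0.653 in the lateral, 0, 0.447 and 0.0530 in the oral and 0.856, 1.14, 0.308 and 0.193 in the nasal libraries. Posterior Chrng was at 0, 0 and 0 RPKM in the medial, 1.88, 0.146 and 0 in the lateral, 0.628, 0.352 and 0.189 in the oral and 0.344, 0 and 0.194 in the nasal libraries. Its highest values, 1.88 and 1.14 RPKM, fell in posterior lateral 1 and anterior nasal 2, and r was 0.71.

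Genes of coupling and energy were low. Sln, sarcolipin, a regulator of the calcium pump, was at 0, 1.76 and 0 RPKM in the anterior medial libraries, 0, 0 and 0 in the lateral, 5.87, 6.07 and 0.587 in the oral and 3.56, 4.21, 0.852 and 0.945 in the nasal libraries. Posterior Sln was at 0.353, 0 and 0 RPKM in the medial, 3.56, 0 and 0 in the lateral, 0.308, 6.16 and 2.61 in the oral and 0.950, 0.998 and 0 in the nasal libraries. It was at 0 in 10 libraries, and only anterior oral 1, anterior oral 2 and posterior oral 2 exceeded 5 RPKM. Ryr1, the calcium release channel, was at 0.812, 0.820 and 0.508 RPKM in the anterior medial libraries, 0.625, 0.809 and 1.09 in the lateral, 1.26, 0.875 and 2.39 in the oral and 1.45, 1.02, 0.841 and 1.37 in the nasal libraries. Posterior Ryr1 was at 1.06, 0.135 and 0.515 RPKM in the medial, 1.28, 0.773 and 0.405 in the lateral, 2.03, 1.12 and 0.463 in the oral and 2.94, 1.251 and 1.02 in the nasal libraries. Its groups overlapped in all 9 comparisons described below. Cav3, the caveolin of muscle, was at 0, 1.054 and 2.13 RPKM in the anterior medial libraries, 0.6201, 0.864 and 0 in the lateral, 0, 1.49 and 0.923 in the oral and 0.799, 1.35, 1.91 and 0 in the nasal libraries. Posterior Cav3 was at 0.159, 0 and 0.448 RPKM in the medial, 0, 0 and 0.743 in the lateral, 0.415, 0.252 and 0.469 in the oral and 1.28, 0.449 and 0.345 in the nasal libraries. Its highest value was in anterior medial 3, a library low in sarcomere genes, it was at 0 in posterior lateral 1, and it did not follow the other genes (r = 0.00). Cacna1s, the voltage sensor, never reached 1 RPKM (highest 0.850), and Ckm, muscle creatine kinase, was at 0 in 11 libraries and highest in anterior oral 1 with 3.62 RPKM.

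**Figure D3:**
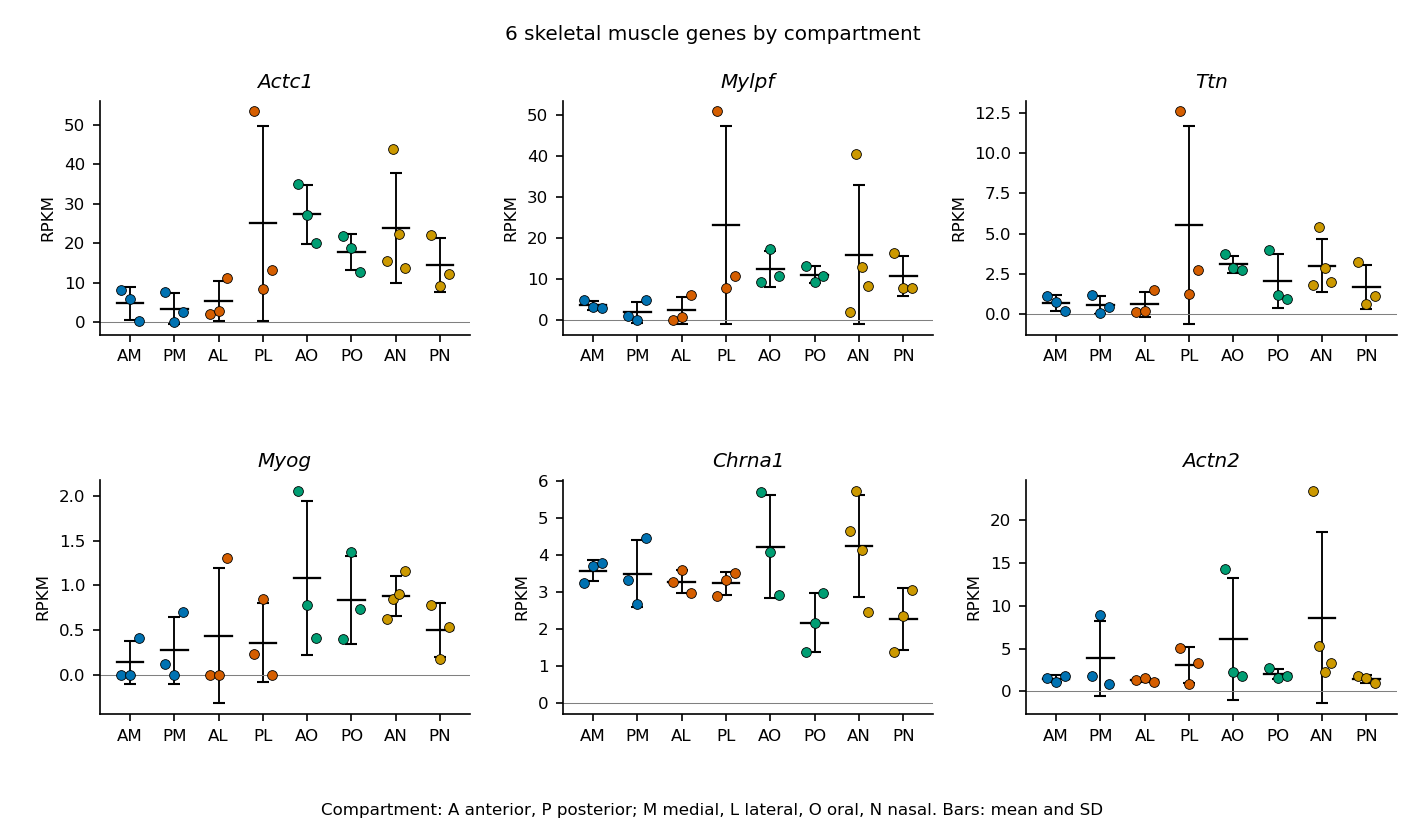
RPKM of 6 skeletal muscle genes by compartment. Points are libraries, bars are the mean and SD of 3 libraries (4 for anterior nasal). Actc1, Mylpf and Ttn peak in posterior lateral 1, Myog reaches at most 2.06 RPKM, Chrna1 lies between 1.38 and 5.74 RPKM, and Actn2 peaks in anterior nasal 1.

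Most of the genes moved together. The correlation of each gene with the mean log2 level of the other 32 had a median of 0.68 over the 25 libraries and was at least 0.7 for 15 genes. The closest after Ttn were Actc1 (r = 0.89), Myh3 (0.87), Tnnt2 (0.86), Mylpf and Myl4 (0.83 each). It was under 0.3 for 4 genes, Chrna1, Cav3, Myf5 (r = 0.25) and Actn2 (r = 0.27). The values share libraries, runs and depth, and low genes are limited by few reads. Among 11884 other genes with at least 5 RPKM in 3 libraries, the 10 with the highest r to the mean of the 33 muscle genes were Cd180 and Ltbp1 (0.76 each), Olfml2b (0.73), Pbld2 (0.71), Pappa2 (0.70), Ablim3 (0.69), Nrk and Pctp (0.68 each), Cbr4 (0.67) and Iqgap2 (0.66). Of these, Ltbp1, Olfml2b, Pappa2, Ablim3, Nrk and Iqgap2 were also highest in posterior lateral 1. The mean by which they were picked was highest there too, so this follows in part from the choice.

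**Figure D4:**
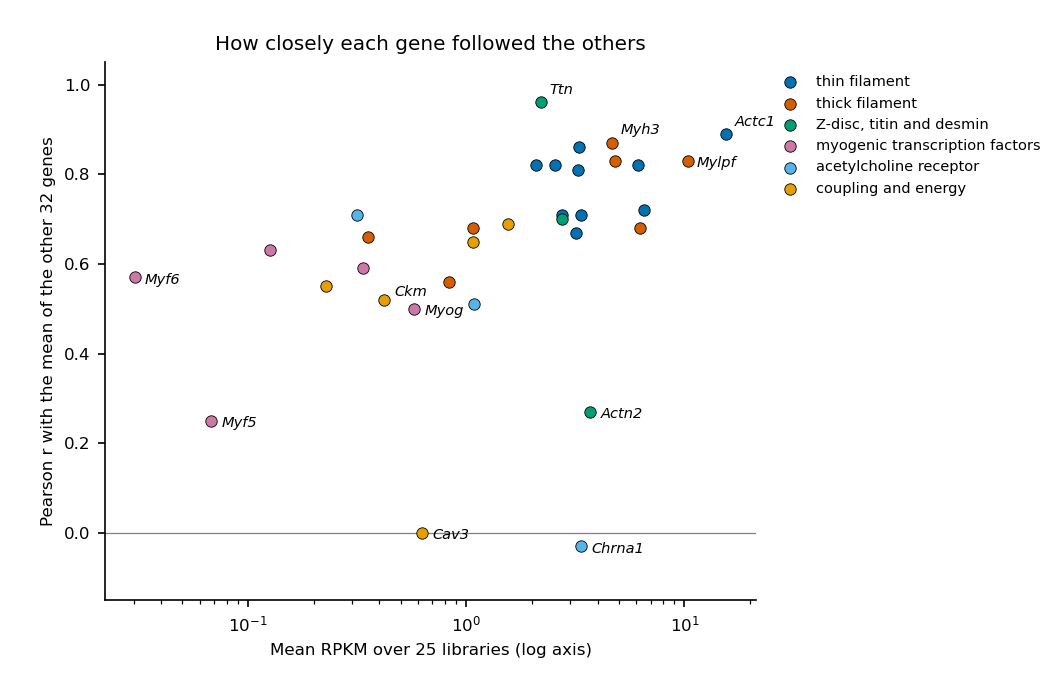
Mean RPKM of each skeletal muscle gene over the 25 libraries (log axis) against its Pearson r with the mean log2 level of the other 32 genes. Sarcomere genes lie at the upper right, and Chrna1 (r = -0.03), Cav3 (0.00), Myf5 (0.25) and Actn2 (0.27) lie apart.

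The study compared posterior with anterior and neighbouring compartments with each other, and each comparison was fitted with limma on log2(RPKM + 0.1) over all genes above an expression minimum. Genes were called at an adjusted p under 0.05 (Benjamini-Hochberg over all genes tested). For the comparisons of the study they were also called at its thresholds, p under 0.05 with more than a 2-fold difference. That p was taken here from limma without adjustment. For posterior versus anterior the study itself used a pooled Audic-Claverie test, so only the thresholds are shared there. Few muscle genes were high enough to be tested, and none was called at an adjusted p under 0.05 in any of the 9 comparisons, where the lowest adjusted p was 0.0955. By limma at an unadjusted p under 0.05 there were 4 values past the line, given below with their comparisons. For the muscle genes, tested or not, the number whose groups did not overlap is also given. It stands beside the same share of all genes above 0 in the compared libraries. For the nasal pair only values are given.

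Between the posterior and the anterior palate, Actc1 and Mylpf were tested. Actc1 averaged 15.2 ± 13.8 RPKM in the 12 posterior and 15.97 ± 13.3 RPKM in the 13 anterior libraries (SD), a log2 fold change of -0.13 ± 0.80 (SE, adjusted p = 0.962). Mylpf averaged 11.7 ± 13.2 and 9.20 ± 10.7 RPKM (log2 fold change 0.41 ± 0.84, adjusted p = 0.873). Neither was shown to differ beyond the spread between libraries, although 286 of 8608 genes did so at an adjusted p under 0.05 (3.32%) and 1.75% passed the study thresholds. No muscle gene separated the 2 regions without overlap, as 0.129% of all genes did. The summed level was 27.7 to 394 RPKM in the posterior libraries and 17.1 to 259 RPKM in the anterior ones, with medians of 71.0 and 89.7 RPKM. Muscle genes were thus not shown to be higher in the posterior palate as a whole.

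Within the lateral compartments the posterior means of the 3 tested genes were higher, but none was called. Mylpf was at 50.9, 7.78 and 10.8 RPKM in posterior lateral and 0, 0.882 and 6.17 RPKM in anterior lateral, a log2 fold change of 4.27 ± 1.47 with an unadjusted p of 0.0238 and an adjusted p of 0.316 by limma. For Actc1 the log2 fold change was 2.13 ± 0.84, with an unadjusted p of 0.0389 and an adjusted p of 0.388, and its groups overlapped. For Tnnt1 it was 2.07 ± 1.47 (adjusted p = 0.681). Of all 10452 genes tested, 1.39% were called at an adjusted p under 0.05. Not all genes had a higher posterior mean, as for Chrna1 (3.25 against 3.29 RPKM), Cav3 (0.2475 against 0.4946), Ryr1 (0.819 against 0.843) and Myog (0.3595 against 0.437). Without overlap, 8 of the 33 muscle genes were higher in posterior lateral (Mylpf, Myl1, Tnnc1, Tnni1, Myh3, Myh8, Myh7 and Pax7) and none was higher in anterior lateral, against 15.6% of all genes in either direction. Without posterior lateral 1 the log2 fold change of Mylpf was 3.45 and that of Actc1 was 1.36. Anterior lateral 1 and 2 formed a sequencing run of their own. In the run that held anterior lateral 3 with posterior lateral 2 and 3, the summed levels were 63.2 RPKM against 58.9 and 79.3 RPKM. With run as a covariate over all 25 libraries, Mylpf came to 0.56, Actc1 to -0.07 and Tnnt1 to -1.09, and compartment and run cannot be told apart.

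In the posterior palate lateral was compared with medial. Actc1, Mylpf and Tnnt3 were tested. Of these, Mylpf met the minimum of 5 RPKM in lateral libraries only, so the filter had fixed its direction in advance. Mylpf was at 50.9, 7.78 and 10.8 RPKM in lateral and 0.973, 0 and 4.80 RPKM in medial libraries, a log2 fold change of 4.34 ± 1.48, and was the only one at the study thresholds (unadjusted p = 0.0244, adjusted p = 0.957 by limma), where 1.12% of 10324 genes stood. This count of 1 became 0 with a pseudocount of 0.01 and with run added, and no sequencing run held both posterior medial and posterior lateral libraries, so run and compartment cannot be told apart here. Actc1 came to 3.83 ± 1.65 and Tnnt3 to 2.15 ± 1.57 (adjusted p = 0.957 for each). The fold changes were large but so were their errors, and no gene of the table reached an adjusted p under 0.05 here (0%), while 159 had an unadjusted p under 0.05. Without overlap, 9 of the 33 muscle genes were higher in posterior lateral (Actc1, Mylpf, Myl4, Tnnc1, Tnnc2, Tnni1, Myh3, Ttn and Mybpc1) and none lower, against 6.59% of all genes in either direction. With an expression minimum of 1 RPKM in 3 libraries, 18 muscle genes were tested and 7 passed the study thresholds, all higher in lateral (Mylpf, Myh3, Myl4, Tnnc1, Tnnc2, Tnni1 and Ttn), against 1.92% of 13718 genes. Of the 7, Tnnc1, Tnnc2 and Tnni1 met this minimum in lateral libraries only, so the filter had fixed their direction in advance. Posterior medial 2, with its 23 muscle genes at 0, was one of the 3 medial libraries. Without it, Mylpf fell to 2.84 and Actc1 to 1.99 on the log2 scale. Without posterior lateral 1, Actc1 came to 3.06, and Mylpf and Tnnt3 no longer met the expression minimum.

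In the anterior palate lateral was compared with medial. Only Actc1 was tested, with 2.06, 2.88 and 11.1 RPKM in lateral and 8.14, 5.92 and 0.222 RPKM in medial libraries (log2 fold change 0.73 ± 1.22, adjusted p = 0.855). Here 2.51% of 10427 genes were called at an adjusted p under 0.05 and 2.37% at the study thresholds. Mybpc1 was the only muscle gene without overlap, at 0.902, 0.4003 and 1.27 RPKM in lateral and 0.154, 0 and 0 RPKM in medial libraries, where 18.8% of all genes did not overlap.

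Oral was compared with nasal in both regions. In the anterior palate 8 muscle genes were tested (Acta1, Actc1, Mylpf, Myl1, Myl4, Tnnt1, Myh3 and Actn2), none changed by more than 2-fold, and none passed either threshold. No gene of the table reached an adjusted p under 0.05 (0%, with 318 at an unadjusted p under 0.05), and 1.44% passed the study thresholds. No muscle gene was without overlap, against 3.62% of all genes. Anterior nasal 2 widened the nasal group, as in Mylpf, which was at 12.5 ± 4.37 RPKM in oral (SD, n = 3) and 16.01 ± 17.0 RPKM in nasal libraries (SD, n = 4).

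In the posterior palate 5 muscle genes were tested. Among them Myl4 met the minimum of 5 RPKM in oral libraries only, so the filter had fixed its direction in advance. Myl4 was at 5.15, 6.25 and 7.53 RPKM in oral and 3.66, 2.31 and 2.22 RPKM in nasal libraries, a log2 fold change of 1.201 ± 0.27, without overlap. It passed the study thresholds (unadjusted p = 0.00179 by limma) as 3.5% of 10586 genes did, but not an adjusted p under 0.05 (0.0955), as 1.25% did. Acta1 came to 1.095 ± 0.53 (adjusted p = 0.738), with 8.48, 13.9 and 7.41 RPKM in oral and 11.0, 2.54 and 3.06 RPKM in nasal libraries, where posterior nasal 1 fell among the oral values. Actc1, Mylpf and Tnnt1 differed by less than 2-fold. Myl4 was thus the only one of the 5 past the study thresholds, and it did not pass them with a pseudocount of 1 or with all 25 samples fitted, with or without run. With Myl4, Myh8 was the other gene without overlap (10.9% of all genes), at 1.36, 1.22 and 2.11 RPKM in oral and 0.809, 0.680 and 0.4703 RPKM in nasal libraries. At an expression minimum of 1 RPKM in 3 libraries, these 2 of 20 muscle genes tested passed the study thresholds, against 5.37% of 14025 genes. Myh8 met this lower minimum in oral libraries only, which likewise fixed its direction.

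Posterior and anterior were also compared within the remaining compartments. In the medial compartments only Actc1 was tested (3.44 ± 3.94 against 4.76 ± 4.09 RPKM, SD, n = 3 each, adjusted p = 0.885 by limma), and 0.106% of 10359 genes were called. Chrnd was higher in posterior medial and Tnni1 higher in anterior medial without overlap, against 10.7% of all genes. In the oral compartments 8 genes were tested, none changed by more than 2-fold, and 0.179% of 10587 genes were called. Tnni2 was higher in anterior oral without overlap (3.75, 2.41 and 4.80 against 1.92, 1.75 and 2.03 RPKM), as 8.16% of all genes were in either direction. In the nasal compartments 5 genes were tested and 2.21% of 10629 genes were called. Myl1 was at 6.57, 3.03 and 1.59 RPKM in posterior and 5.01, 19.3, 4.25 and 7.46 RPKM in anterior nasal libraries (log2 fold change -1.203 ± 0.59, adjusted p = 0.309 by limma), with overlap. Actn2, which was not tested, was at 23.5, 5.30, 2.30 and 3.33 RPKM in anterior and 1.82, 1.56 and 0.979 RPKM in posterior nasal libraries.

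**Figure D5:**
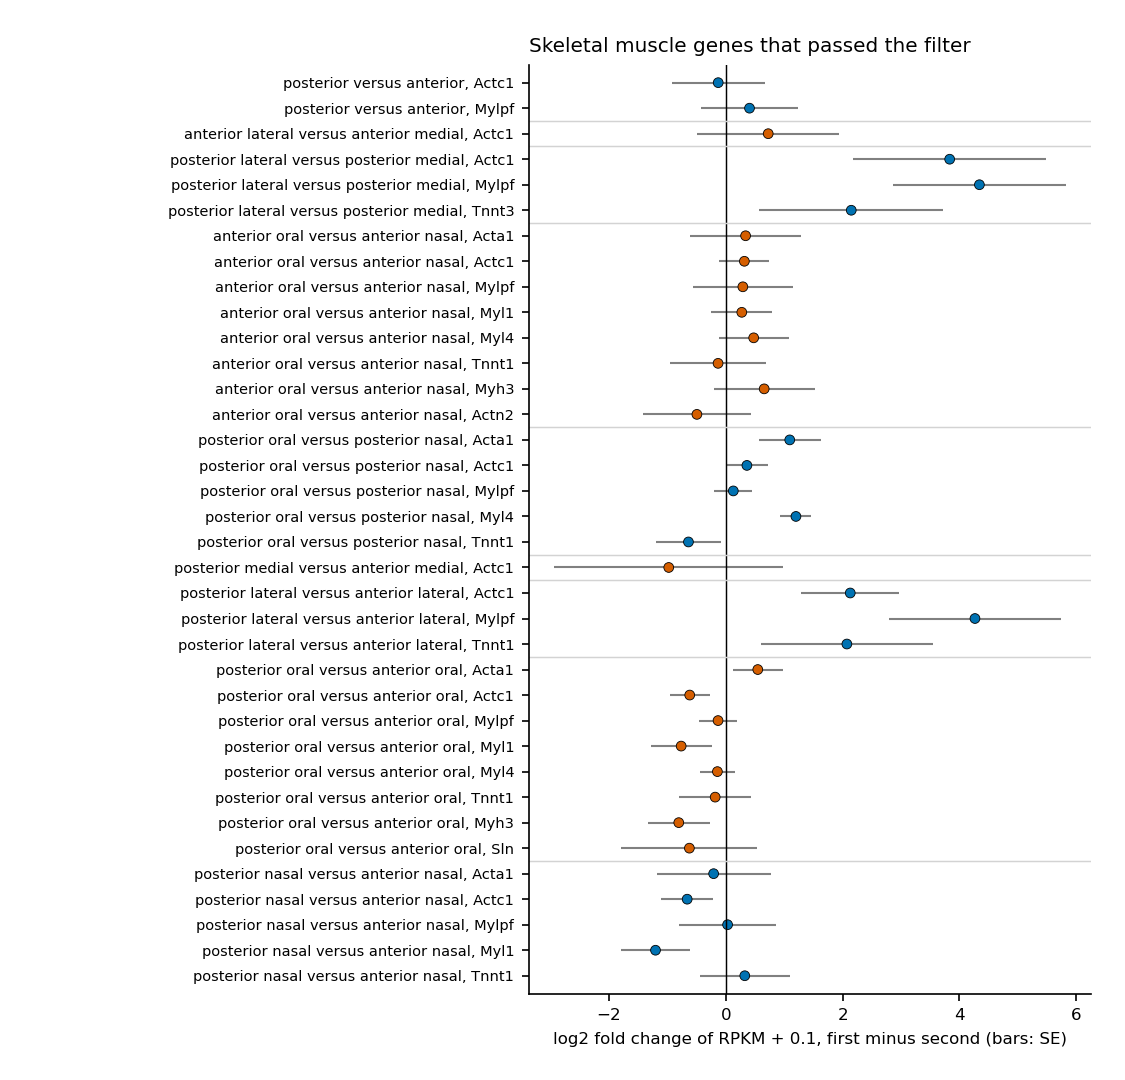
Log2 fold change (first compartment minus second) with its SE for each skeletal muscle gene that passed the expression minimum, in the 9 comparisons. The values for posterior lateral lie highest, up to 4.34, with wide errors, and Myl4 in posterior oral versus nasal has a narrow one.

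Further genes of muscle were read from a wider list of 79 names, of which 74 had a row. Those with the highest means were Tpm2 (64.2 RPKM), a tropomyosin that other cells also express, Cap2 (13.4 RPKM), which binds actin, Eno3 (10.9 RPKM), the muscle enolase, Cacnb1 (8.94 RPKM), a calcium channel subunit, and Kbtbd10 (5.91 RPKM), the older symbol of Klhl41, whose current symbol had no row. In the same order, their r to the mean log2 level of the 33 genes was 0.04, 0.46, -0.10, 0.07 and 0.00. Between 4 and 10 of the list passed the expression minimum in a comparison. Across the 9 comparisons 1 call was made at an adjusted p under 0.05, in posterior versus anterior nasal, where 2.21% of all genes were called. It was for Hrc, a calcium-binding protein of the sarcoplasmic reticulum. Hrc was at 38.6, 12.7 and 16.2 RPKM in posterior nasal and 1.79, 1.62, 0.912 and 6.11 RPKM in anterior nasal libraries, a log2 fold change of 3.24 ± 0.60 (adjusted p = 0.0290 by limma). The osteoblast markers summed to 290 to 422 RPKM in the posterior and 43.5 to 87.4 RPKM in the anterior nasal libraries, while the 33 muscle genes averaged 82.7 RPKM in the posterior and 141 RPKM in the anterior ones. The part of bone cells in Hrc was not tested. In posterior lateral 1, where the sarcomere genes peaked, Hrc was at 2.98 RPKM. The genes of the list with the closest likeness were low, such as Smyd1 (r = 0.84, highest 2.74 RPKM), a methyltransferase needed for sarcomere assembly, and Ldb3 (r = 0.81, highest 3.04 RPKM), a Z-disc protein.

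Regulators upstream of head and trunk muscle were read as well. Lbx1, which marks migrating limb and tongue progenitors, was at 0 in 24 libraries. In posterior versus anterior 8 were tested, 2 fell (Eya1 and Pax3) and 1 rose (Eya4) at an adjusted p under 0.05 by limma, where 3.32% of all genes were called. The same 3 were called in these directions in the lateral (of 9 tested, 1.39% of all genes) and nasal compartments (of 10 tested, 2.21%), and Eya1 and Pax3 in the oral ones (of 8 tested, 0.179%). Pax3 was also lower in posterior oral than nasal (1.25% of all genes), and Six4 was lower in anterior lateral than medial (log2 fold change -0.57, adjusted p = 0.0408 by limma, 2.51%). Pax3 averaged 8.73 ± 5.94 RPKM in the 12 posterior and 42.45 ± 8.91 RPKM in the 13 anterior libraries (log2 fold change -2.57 ± 0.30, adjusted p = 1.94e-06). These genes also act in palate mesenchyme and cranial neural crest.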

How the data were processed

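Laser capture microdissected compartments of wild-type CD1 palate at E14.5 were sequenced as single-end reads of 50 bases. The authors deposited 1 table of RPKM values, and the submitters' processing notes name TopHat and mm9. By the methods of the study the values came from GeneSpring, without duplicated or multiply aligned reads, so genes of near-identical sequence can be understated. No counts were used, and the depth was worked out from the steps between low values.

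Samples were grouped by the compartment in their labels. The study describes its replicates as biological. Nothing in the labels says which libraries came from separate embryos, so p-values measure the spread between libraries, part of which may be technical. Values were analysed as log2(RPKM + 0.1) with limma 3.58.1 in R 4.3.3, with Benjamini-Hochberg adjustment over all genes tested. A fold change on this scale understates that of low genes. Genes needed 10 RPKM in 6 samples for posterior versus anterior and 5 RPKM in 3 of the compared samples for pairs of compartments. The test scripts were tested on simulated data with 200 changed genes. The members and lists were chosen with earlier results of these data known. All members were named, in full for up to 3 of each role with the highest mean and for any called. From the wider muscle list the 5 with the highest mean and any called were named, and Myh1, Myh2, Myh4, Smyd1 and Ldb3 were added after their values were seen, as were the marker genes named singly and Lbx1 and the called regulators. The 10 most alike genes were taken by Pearson r. One regulator is not reported here.

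Replicate numbers come from the labels. Over 11913 genes, the deviations of same-numbered samples correlated above 0.1 for every pair only in anterior oral versus anterior nasal (r = 0.242, 0.218 and 0.116), where the replicate block changed no call. Alternatives changed the pseudocount, scaling, filter, variance model, block, samples in the fit, run and libraries.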

Additional observations from a re-analysis of the deposited data

Results flagged for a closer look

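In anterior nasal, the compartment with 4 libraries, 34 values were tested for a library far from the others. For normally distributed values, chance flags about 1 in 20. RPKM near 0 are not so distributed, and a gene above 0 in 1 of the 4 libraries is always flagged. The summed level also contains the single genes. The number of flags thus cannot be set against that rate. Anterior nasal 2 was flagged for the summed level of the muscle genes, 258.9 RPKM against 116.2 in the next library. It was also flagged for Tnnc2, fast troponin C, at 7.045 RPKM against 3.076. Within anterior nasal, the same library held the only values above 0 for Myf5 (0.15 RPKM) and Myf6 (0.2504 RPKM), which rest on very few reads. Anterior nasal 1 was flagged for Actn2, the Z-disc actinin, at 23.48 RPKM against 5.299 in the next library.

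Tnni1, slow troponin I, had posterior and anterior means that differed in opposite directions in lateral and medial libraries. Posterior minus anterior, its difference in mean level was 3.148 RPKM in lateral and -1.152 RPKM in medial libraries, both without overlap. Of all genes, 15.6% and 10.7% did not overlap in these comparisons. The lateral groups were parted only by 1.1333 RPKM in posterior lateral 2 against 1.1252 RPKM in anterior lateral 3, and posterior lateral 1 was at 7.4388 RPKM. The posterior medial values were near the floor, at 0.1223, 0 and 0 RPKM. The difference between the compartments was not tested.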

How the results depend on the processing

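No muscle gene reached an adjusted p under 0.05 in any fit run, where the lowest was 0.0847. The count at the study thresholds in posterior lateral versus medial, 1 as reported, became 2 with a pseudocount of 1, quantile normalization, a mean-variance trend or all 25 samples by compartment, 0 with a pseudocount of 0.01 or with run added, 4 with no filter and 7 with 1 RPKM in 3 samples. With the replicate block it was 2. Leaving out 1 library gave 0 to 2, with 0 without any of posterior lateral 1, 2 and 3, where Mylpf no longer met the minimum, and 2 without posterior medial 2. In posterior oral versus nasal, 1 as reported, it became 0 with a pseudocount of 1 or all 25 samples, with or without run, 2 with no filter or 1 RPKM, and 0 to 2 leaving out 1 library, with 0 without any posterior oral library, where Myl4 no longer met the minimum, and 2 without posterior nasal 1. In anterior lateral versus medial, 0 as reported, it was 1 with no filter. For posterior versus anterior, Actc1 turned to 0.49 with quantile normalization and ranged from -0.54 to 0.45 leaving out 1 library, and Mylpf turned to -0.15 with run added and ranged from -0.056 to 0.95. With run added, posterior lateral versus anterior lateral gave -0.075 for Actc1 and -1.09 for Tnnt1, and Myl1 in posterior versus anterior nasal gave 0.18. The cause was not tested. Of 36 log2 fold changes, 27 changed sign in some alternative, 11 of them with run added and 3 under the replicate block, which changed no other call. Low depth limits the genes under 1 RPKM.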
